A study of Mus musculus with 4 samples.

Results

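The accessible chromatin of 9 Hippo pathway genes was examined in sorted palate cells of mouse embryos that lacked Shox2 or kept 1 intact copy of it. The genes were Tead1, Tead2, Tead3, Tead4, Yap1, Wwtr1, Lats1, Lats2 and Vgll3. Peaks of the 4 deposited lists were merged where they shared at least 1 bp, and a region belonged to the protein-coding gene nearest to its midpoint within 100 kb. By that rule 36 regions belonged to 8 of the 9 genes, out of 34802 regions assigned to a gene and 39843 regions in all. The assay was ATAC-seq, which marks open DNA by the insertion of sequencing adapters with a transposase. The mutant group was Shox2Cre/-;Nkx2.5F/F;R26RmTmG and had 2 libraries. The control group was Shox2Cre/+;Nkx2.5F/F;R26RmTmG and also had 2 libraries. Embryos were at E14.5, and 50000 sorted cells were pooled for each group. In both groups Cre was inserted at Shox2, so sorted cells had a history of Shox2 expression, and green fluorescence came from the R26RmTmG reporter after Cre acted. Both groups also carried 2 floxed copies of Nkx2-5, which Cre can cut, and the controls were therefore not wild type there. Whether the 2 libraries of a genotype had separate sources is not stated in the labels, so p-values measure only the spread between these libraries, which may be technical.

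The Hippo pathway is a kinase cascade that controls growth. The kinases encoded by Lats1 and Lats2 phosphorylate the coactivators YAP (Yap1) and TAZ (Wwtr1), which then stay in the cytoplasm. Unphosphorylated YAP and TAZ enter the nucleus and bind DNA through the TEAD transcription factors (Tead1 to Tead4), while Vgll3 encodes a cofactor that binds TEAD proteins in place of YAP and TAZ. In mice, Yap1 and Wwtr1 are known to be needed in neural crest cells, the source of the palate mesenchyme, for normal craniofacial development. ATAC-seq peaks show where DNA was open, not how much RNA or protein a gene made.

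The mutant lists held 29225 and 31832 peaks and the control lists 30239 and 22966, so the list of control 2 was the shortest. The read depth is unknown. Of 8 marker genes of palate mesenchyme, 5 had a region in all 4 libraries, while Pdgfra, Shox2 and Tbx22 had regions in some libraries only. Regions in all 4 libraries were also found at 3 of 5 epithelial, 2 of 4 endothelial, 3 of 4 blood and immune, 1 of 4 skeletal muscle and 1 of 4 neuron and glia marker genes. Of the markers of those other cell types, Krt14, Tie1, Gata1, Myog and Elavl3 had no region in any library. Peaks at the epithelial genes numbered 11 and 13 in the mutants and 11 and 7 in the controls, at the endothelial genes 9 and 7 in the mutants and 11 and 6 in the controls, and at the blood and immune genes 7 and 9 in the mutants and 7 and 5 in the controls. Peaks at the skeletal muscle genes numbered 3 and 5 in the mutants and 2 and 1 in the controls, and at the neuron and glia genes 2 in each library. The part of these cells in the values below was not tested.

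The promoter sequences of 5 genes are shown because they carried the letters bound by TEAD proteins in accessible DNA. RefSeq promoter windows (GRCm38.p6, the mm10 build) span 250 bases before to 50 bases after a start and were matched for 7 of the 9 genes, all except Tead1 and Tead4. The motif searched was GGAATG, on both strands, which reads CATTCC when it lies on the opposite strand. It occurred in a window of 5 of the 7 genes, Tead3, Yap1, Wwtr1, Lats2 and Vgll3, but not in those of Tead2 and Lats1. Of 17274 protein-coding genes with a window, 15.4% had a match, and of the 9336 whose window touched a region of all 4 libraries, 13.7% had one, against 5 of the 6 Hippo genes with such a window. All 300 bases of each window printed lay inside a region held by every library. Sequences are given on the strand of the gene, with the matched letters in capitals.
Tead3 (chr17:28350551-28350850, minus strand): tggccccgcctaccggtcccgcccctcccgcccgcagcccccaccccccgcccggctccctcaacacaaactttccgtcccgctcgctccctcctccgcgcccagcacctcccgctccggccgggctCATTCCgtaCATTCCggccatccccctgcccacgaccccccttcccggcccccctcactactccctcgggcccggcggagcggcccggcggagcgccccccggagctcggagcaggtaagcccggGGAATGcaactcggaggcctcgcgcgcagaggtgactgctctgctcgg
Yap1 (chr9:8004547-8004846, minus strand): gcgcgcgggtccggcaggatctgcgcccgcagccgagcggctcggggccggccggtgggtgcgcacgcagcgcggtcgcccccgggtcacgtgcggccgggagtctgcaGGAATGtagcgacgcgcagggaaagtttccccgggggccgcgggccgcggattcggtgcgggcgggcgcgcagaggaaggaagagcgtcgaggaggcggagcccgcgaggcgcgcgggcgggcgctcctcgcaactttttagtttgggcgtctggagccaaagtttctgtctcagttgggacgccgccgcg
Wwtr1 (chr3:57575861-57576160, minus strand): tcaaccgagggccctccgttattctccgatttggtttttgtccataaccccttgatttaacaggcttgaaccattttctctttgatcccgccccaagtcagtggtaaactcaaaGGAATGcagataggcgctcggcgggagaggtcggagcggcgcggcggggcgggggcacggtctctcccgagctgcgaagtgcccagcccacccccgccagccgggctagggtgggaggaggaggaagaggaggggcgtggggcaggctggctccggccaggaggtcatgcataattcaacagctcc
Lats2 (chr14:57746074-57746373, minus strand): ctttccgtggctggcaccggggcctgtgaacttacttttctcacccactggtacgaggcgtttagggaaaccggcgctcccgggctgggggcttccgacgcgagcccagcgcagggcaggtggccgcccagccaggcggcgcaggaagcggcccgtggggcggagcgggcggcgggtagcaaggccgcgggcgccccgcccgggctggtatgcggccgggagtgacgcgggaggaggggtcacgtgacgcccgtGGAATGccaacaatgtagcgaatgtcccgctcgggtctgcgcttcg
Vgll3 (chr16:65814939-65815238, plus strand): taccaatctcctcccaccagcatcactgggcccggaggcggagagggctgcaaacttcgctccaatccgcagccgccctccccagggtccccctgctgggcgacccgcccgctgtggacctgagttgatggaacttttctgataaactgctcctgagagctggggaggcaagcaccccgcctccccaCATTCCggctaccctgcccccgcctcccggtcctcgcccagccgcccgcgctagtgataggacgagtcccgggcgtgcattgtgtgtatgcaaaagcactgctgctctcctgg

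Tead3 had 3 matches in this window, of which those on the opposite strand began 123 and 114 bases before the start. The Yap1 match began 141 bases and the Wwtr1 match 136 bases before the start, and the Vgll3 match began 63 bases before it on the opposite strand. The Lats2 match lay just past the start. Neither TGANTCA, the AP-1 letters, nor TAATTA, a core that many homeodomain proteins bind, occurred in any of the 11 windows of the 7 genes. Among all 17274 genes TGANTCA was found in 8.19% and TAATTA in 5.3%. A match describes letters, not a bound site.

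The 36 regions were spread unevenly over the genes. Tead1, the longest of them at 227 kb, had 11 regions, Tead4, Wwtr1 and Vgll3 had 5 each, Yap1 had 4, Lats2 had 3, Tead3 had 2, Tead2 had 1 and Lats1 had 0. A promoter region was one whose midpoint lay within 1 kb of a start, or of either gene end for Tead1 and Tead4, and 9 regions met this, against 27 distal ones. Of the distal regions, 20 lay inside a gene and 7 outside it. The Tead2 and Tead3 genes, both under 20 kb long, had the fewest regions after Lats1.

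All 4 libraries held 18 of the 36 regions, close to the background of 50.4% over all regions assigned to a gene. A peak in 1 library alone was found at 11 regions, against 22.3% of all assigned regions. These were 1 of the 9 promoter regions, against 4.63% of all promoter regions, and 10 of the 27 distal regions, against 32.1% of all distal regions. That promoter region was the lower end of Tead4. It counted as a promoter because either end was taken where no strand was given, so it may not hold a start. Promoter regions were held by all libraries in 7 of 9 cases, against 85.2% of all promoter regions. Distal regions were held by all libraries in 11 of 27 cases, against 31.3% of all distal regions. Mutant libraries held a peak in 28 and 25 of the 36 regions and control libraries in 26 and 22. Per 10000 peaks these were 9.58 and 7.86 in the mutants and 8.60 and 9.58 in the controls, a difference of −0.372 between the means (two-sided exact permutation p = 1, where 2 libraries against 2 allow no p below 0.333). The counts of the genotypes overlapped.

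**Figure D1:**
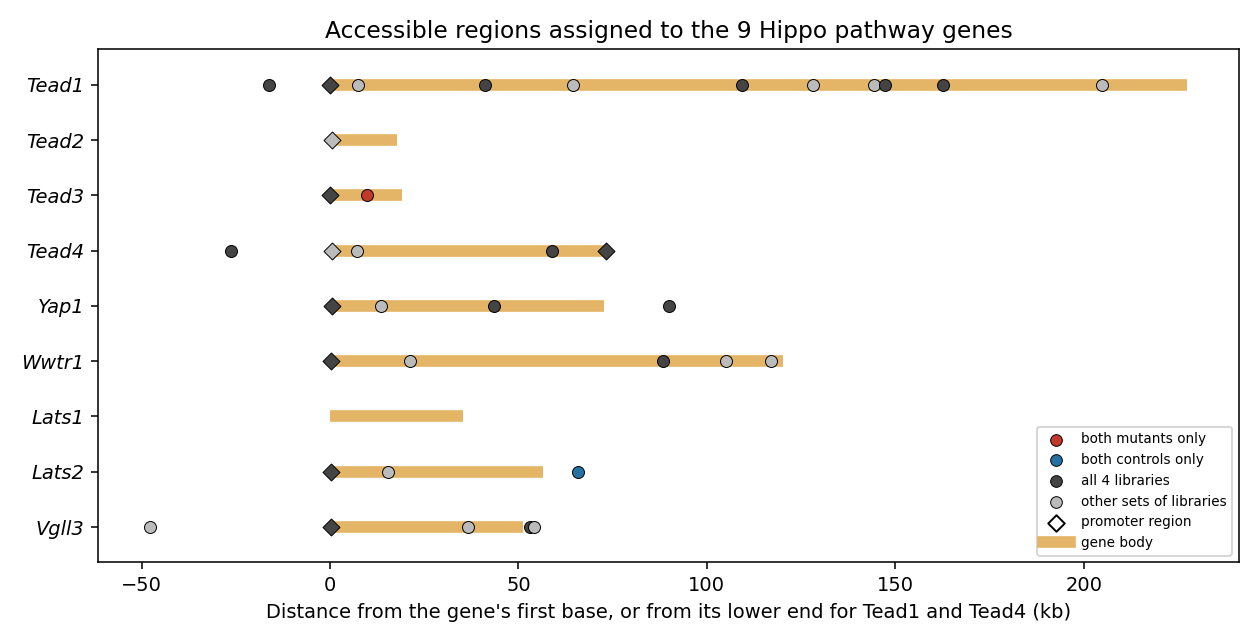
Positions of the 36 regions along the 9 genes, by the distance of each midpoint from the first base of the gene in kb (from the lower gene end for Tead1 and Tead4, which have no window in the promoter table). Diamonds are promoter regions, bars are gene bodies and colours give the libraries that held a peak. Both mutants alone held a region inside Tead3, and both controls alone held another beside Lats2.

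The deposited peak score, the whole part of 10 times the −log10 p of the peak, was turned into its percentile within its own library, where 100 is the strongest peak. The score depends on depth and on the width of a peak, and the lists differ in length, so whole-list percentiles describe a library and do not show a change between libraries.

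**Figure D2:**
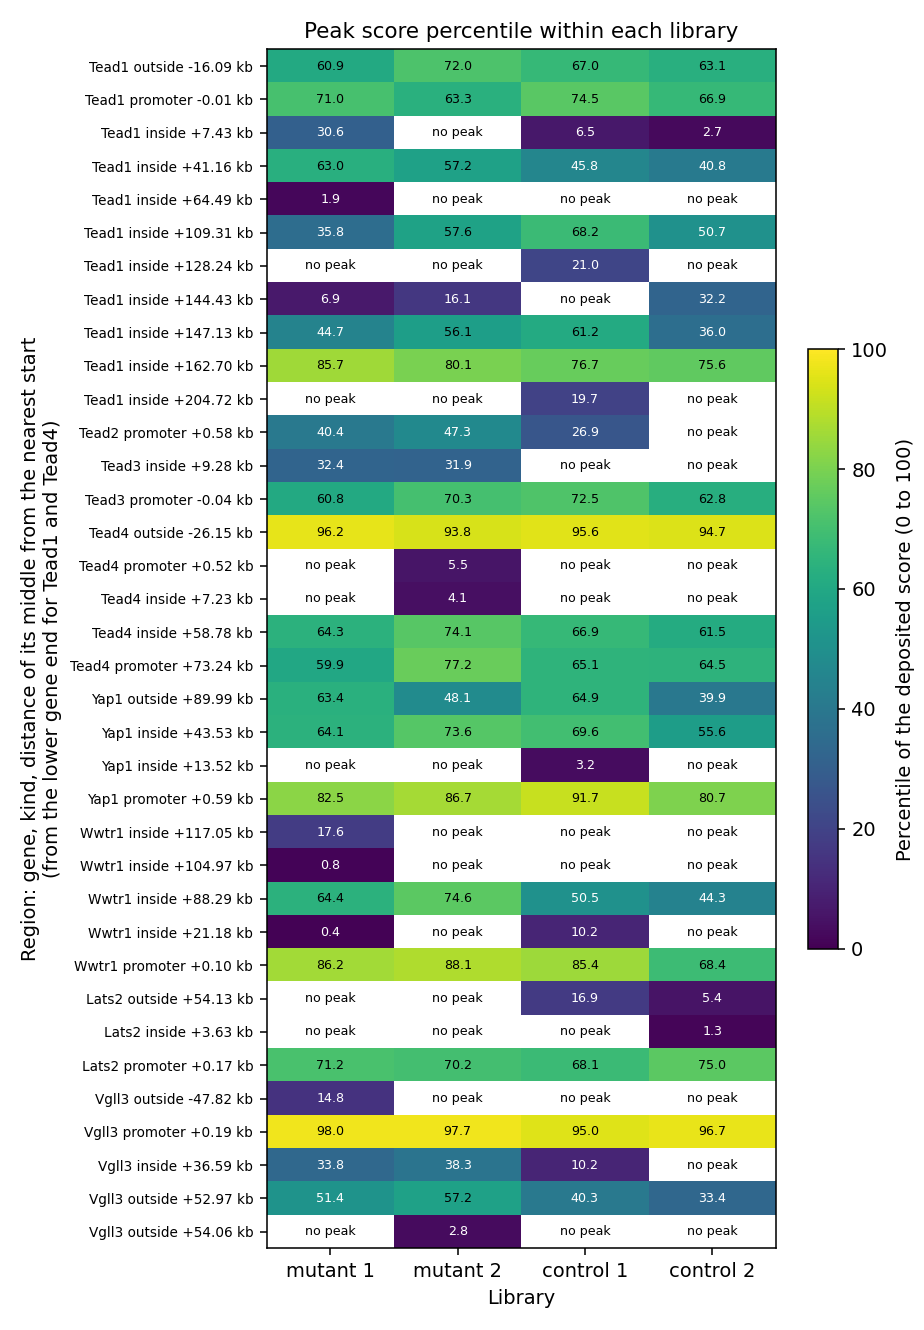
Percentile of the deposited score within each library for the 36 regions (rows) in the 4 libraries (columns), with the value printed in each cell and white cells where no peak was listed. The Vgll3 promoter and the region 26.1 kb below Tead4 ran from 93.8 to 98.02 over all libraries, and peaks listed in a single library lay at 21.0 or lower.

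Among the TEAD genes, Tead1 encodes a factor needed for heart development in mice, and its region at the lower gene end (chromosome 7, 112678413 to 112680270) was held by all 4 libraries. Its percentiles were 71.0 and 63.3 in the mutants and 74.5 and 66.9 in the controls, with authors' enrichments of 6.13 and 5.48 in the mutants and 6.61 and 6.19 in the controls. The summit, the highest point of a peak, lay at −227 and −229 bp from that gene end in the mutants and at −163 and −197 bp in the controls. Among regions held by every library its rank percentile was 55.2 and 38.9 in the mutants and 59.2 and 59.8 in the controls, so both mutants ranked below both controls, with a difference of −12.4 points between the means. This difference was −4.14 without mutant 2 and −19.7 without mutant 1. With percentiles of the whole lists it was −3.53 and the genotypes overlapped.

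Inside Tead1, the region 163 kb from the lower end (chromosome 7, 112841645 to 112842473) was the strongest by mean percentile. Its percentiles were 85.7 and 80.1 in the mutants and 76.7 and 75.6 in the controls, with enrichments of 12.7 and 11.3 in the mutants and 10.4 and 10.6 in the controls. Its rank percentiles were 77.9 and 66.5 in the mutants and 62.8 and 70.4 in the controls, and the genotypes overlapped. A pair of Tead1 regions differed by genotype in opposite directions. The one 41.2 kb from the lower end (chromosome 7, 112719930 to 112721108) had rank percentiles of 43.1 and 29.9 in the mutants and 18.8 and 29.1 in the controls, higher in both mutants by 12.6 points. That difference was 6.03 without mutant 1, 18.9 without mutant 2 and 7.25 without control 1. The one 109 kb from the lower end (chromosome 7, 112788039 to 112789299) had rank percentiles of 11.8 and 30.4 in the mutants and 49.3 and 40.4 in the controls, lower in both mutants with a difference of −23.8 points, the largest difference in size among the 18 shared regions of these genes. It was −13.9 without mutant 1. Ranked by enrichment, the genotypes overlapped at both, with differences of 11.01 and −17.4. At the second they also overlapped on whole-list percentiles, with a difference of −12.8.

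The remaining shared regions of Tead1 had overlapping ranks. The region 16.1 kb below the gene had rank percentiles of 40.0 and 53.0 in the mutants and 47.4 and 55.2 in the controls. The region 147 kb from the lower end had 19.8 and 28.4 in the mutants and 38.5 and 24.1 in the controls. The other 5 Tead1 regions were missing from at least 1 library. Of these, 3 were listed in a single library, with percentiles of 1.94 in mutant 1 and of 21.0 and 19.7 in control 1. The region 7.43 kb from the lower end had a percentile of 30.6 in mutant 1, no peak in mutant 2, and 6.47 and 2.71 in the controls. The region 144 kb from that end had 6.92 and 16.1 in the mutants, no peak in control 1 and 32.2 in control 2. None of the 5 followed genotype.

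Tead2, the TEAD gene best known from early mouse embryos, had a single region, over its start (chromosome 7, 45215581 to 45217159). Its percentiles were 40.4 and 47.3 in the mutants and 26.9 in control 1, with no peak in control 2. Enrichments were 4.67 and 5.44 in the mutants and 4.54 in control 1. The missing call fell in the shortest list, where 3 peak numbers between the flanking listed peaks had been removed before deposit, so a weaker peak there cannot be told from none.

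Tead3 had a promoter region over its 3 annotated starts (chromosome 17, 28350068 to 28351632), which contains the window printed above. Percentiles there were 60.8 and 70.4 in the mutants and 72.5 and 62.8 in the controls, with enrichments of 4.93 and 5.89 in the mutants and 6.29 and 5.66 in the controls. Rank percentiles among shared regions were 39.8 and 50.2 in the mutants and 56.1 and 54.8 in the controls, lower in both mutants with a difference of −10.4 points. The difference was −4.97 without mutant 1, and on whole-list percentiles it was −2.09 with overlapping genotypes. Inside the gene, 9.28 kb past the nearest start (chromosome 17, 28340557 to 28341575), lay the only region of the 9 genes with a peak in both mutants and in no control. Its percentiles were 32.4 and 31.9 and its enrichments 4.15 and 4.41 in the mutants. Over all assigned regions 4.01% were of this kind, as were 5.63% of all distal regions, so 1 of 36, or 1 of 27, is near the background. None of the 9 promoter regions was of this kind or of the reverse, against 1.06% and 0.373% of all promoter regions. In each control 2 peak numbers had been removed in the gap that holds the region. The same region was called with equal numbers of peaks from each list, where its percentiles were 14.0 and 5.61 in the mutants. Tead3 lies 1.49 Mb from Nkx2-5, whose floxed alleles both groups carried.

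Tead4, which in mice is needed for the first extraembryonic lineage, had 5 regions. The strongest lay 26.1 kb below the gene (chromosome 6, 128200134 to 128201861) and was among the strongest peaks of every library. Its percentiles were 96.2 and 93.8 in the mutants and 95.6 and 94.7 in the controls, with enrichments of 11.7 and 10.5 in the mutants and 11.5 and 10.4 in the controls. The region at the upper gene end (chromosome 6, 128299644 to 128301128) had percentiles of 59.9 and 77.2 in the mutants and 65.1 and 64.5 in the controls, where the mutants lay on either side of both controls. A region inside the gene, 58.8 kb from its lower end (chromosome 6, 128285531 to 128286324), had percentiles of 64.3 and 74.1 in the mutants and 66.9 and 61.5 in the controls. The lower gene end and a region 7.23 kb from it were listed in mutant 2 alone, at percentiles of 5.52 and 4.11. Rank differences at the 3 shared regions were −1.43, 0.487 and −0.567 points, and the genotypes overlapped at each.

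Yap1 and Wwtr1 encode the coactivators that the pathway holds back. The Yap1 promoter region (chromosome 9, 8002890 to 8005127) was wide, with peaks of 2186 and 2204 bp in the mutants and 1893 and 2050 bp in the controls. Its summit lay at −21 and −49 bp from the start in the mutants and at −25 and −45 bp in the controls. Percentiles were 82.5 and 86.7 in the mutants and 91.7 and 80.7 in the controls, with enrichments of 6.33 and 7.02 in the mutants and 8.33 and 6.52 in the controls. Rank percentiles were 72.9 and 77.6 in the mutants and 86.7 and 76.5 in the controls, and the genotypes overlapped. The region inside Yap1, 43.5 kb past the start (chromosome 9, 7960090 to 7962032), had rank percentiles of 44.8 and 55.5 in the mutants and 51.4 and 46.2 in the controls. The region 17.4 kb past the far end of the gene (chromosome 9, 7914006 to 7915210) had rank percentiles of 43.8 and 18.8 in the mutants and 44.1 and 28.1 in the controls, and replicates differed more than genotypes did. The last region, 13.5 kb past the start, was listed in control 1 alone at a percentile of 3.25.

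At Wwtr1, as at Vgll3, both shared regions assigned by the nearest-gene rule ranked higher in both mutants. By nearest gene start, of these only the promoter region stayed with each gene. The region inside the gene 88.3 kb past the start (chromosome 3, 57486990 to 57488188) had percentiles of 64.4 and 74.6 in the mutants and 50.5 and 44.3 in the controls, with enrichments of 7.83 and 9.48 in the mutants and 7.04 and 7.42 in the controls. Its rank percentiles were 45.2 and 57.3 in the mutants and 24.0 and 33.0 in the controls, so both mutants lay above both controls, with a difference of 22.8 points that ran from 16.4 to 27.9 with any 1 library left out. It was 24.5 with equal peak numbers and 20.5 when ranked by enrichment. The promoter region (chromosome 3, 57574786 to 57576760) had percentiles of 86.2 and 88.1 in the mutants and 85.4 and 68.4 in the controls, where control 2 was low and control 1 lay close to the mutants. Its rank percentiles were 78.7 and 79.9 in the mutants and 76.7 and 61.7 in the controls, higher in both mutants by 10.2 points. Without control 2 the difference was 2.27, and without control 1 it was 17.0. The other 3 Wwtr1 regions, all inside the gene, were held by mutant 1, by mutant 1, and by mutant 1 and control 1, at percentiles of 17.6 or lower. Wwtr1 lies 9.40 Mb from Shox2 on chromosome 3, so at this gene the loss of Shox2 and sequence linked to the Shox2 alleles cannot be told apart.

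Of the kinase genes, Lats1 had no region by the nearest-gene rule. A region held by all 4 libraries did cover its start (chromosome 10, 7680436 to 7682213), but its midpoint lay where Lats1 overlaps Pcmt1, a protein repair enzyme gene on the opposite strand, and nearer to that end of Pcmt1 than to the start of Lats1. Percentiles of that region were 64.9 and 70.8 in the mutants and 73.1 and 70.7 in the controls, with rank percentiles of 46.0 and 51.0 in the mutants and 56.9 and 64.5 in the controls, lower in both mutants with a difference of −12.2 points. By nearest start the region belonged to Lats1. It is not counted among the 36.

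Lats2 had a promoter region (chromosome 14, 57745201 to 57746697) with percentiles of 71.2 and 70.2 in the mutants and 68.1 and 75.0 in the controls and enrichments of 7.22 and 7.24 in the mutants and 7.29 and 8.31 in the controls. Its rank percentiles were 55.5 and 49.98 in the mutants and 49.1 and 69.6 in the controls, and the genotypes overlapped, with control 2 highest and control 1 lowest. Beyond the far end of the gene, at a distance of 9.37 kb (chromosome 14, 57679875 to 57680706), lay the only region of the 9 genes with a peak in both controls and in no mutant. Its percentiles were 16.9 and 5.42 and its enrichments 5.59 and 4.98 in the controls. Such regions made up 1.07% of all assigned regions and 1.45% of the distal ones, and 1 of 36 rests on a single region. The call was lost with equal numbers of peaks from each list, and 8 and 3 peak numbers had been removed in the gap that holds it in the mutants. A region 3.64 kb past the inner start was listed in control 2 alone at a percentile of 1.31.

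Vgll3, the TEAD cofactor gene, had the strongest promoter region of the set (chromosome 16, 65814709 to 65816053). Its percentiles were 98.02 and 97.7 in the mutants and 95.0 and 96.7 in the controls, with enrichments of 11.4 and 11.1 in the mutants and 10.1 and 10.5 in the controls. The summit lay 8 and 62 bp past the start in the mutants and at −78 and −22 bp from it in the controls. Rank percentiles were 96.9 and 96.2 in the mutants and 92.0 and 96.0 in the controls, so both mutants were higher, by 2.53 points. The difference was 0.534 without control 1 and 3.83 without control 2, and the genotypes overlapped when ranked by enrichment, with a difference of 6.66. The region 1.79 kb past the far end of the gene (chromosome 16, 65867819 to 65868502) had percentiles of 51.4 and 57.2 in the mutants and 40.3 and 33.4 in the controls and enrichments of 6.79 and 7.14 in the mutants and 6.24 and 6.06 in the controls. Its rank percentiles were 27.2 and 29.9 in the mutants and 13.7 and 21.6 in the controls, higher in both mutants by 10.9 points, and by 6.98 without control 1.

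The region inside Vgll3, 36.6 kb past the start (chromosome 16, 65851453 to 65852100), had percentiles of 33.8 and 38.3 in the mutants and 10.2 in control 1, with no peak in control 2. With equal numbers of peaks from each list it was held by both mutants and no control, at percentiles of 15.8 and 14.498 in the mutants. The last 2 regions were listed in mutant 1 and in mutant 2 alone, at percentiles of 14.8 and 2.78.

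Over the 18 shared regions, both mutants ranked above both controls in 5, against 17% of the 17528 shared regions assigned to any gene. Both controls ranked above both mutants in 3, against 18.4%. The 5 lay at Wwtr1, Vgll3 and Tead1 and the 3 at Tead1 and Tead3. Each of these 8 had a two-sided exact permutation p of 0.333, the smallest that 2 libraries against 2 allow, so no single region can pass a threshold of 0.05. The median difference, mutant minus control, was −0.996 points over the 18 regions, against −0.102 over all shared regions assigned to a gene. It lay above 0 without mutant 1, at 0.761, and without control 2, at 2.65, so its sign rests on single libraries. In the 7 shared promoter regions both mutants ranked higher in 2 and both controls in 2, against 16% and 18.7% of all shared promoter regions. In the 11 distal ones these were 3 and 1, against 18.3% and 18% of all shared distal regions. When ranked by enrichment instead of score, 5 of the 8 had genotypes that did not overlap. The 8 were chosen for not overlapping on the score of the same peaks, so this is no separate support. Over the 18 regions, ranking by enrichment put both mutants higher in 3 and both controls in 2, against 17.1% and 17.7% of all shared regions. Without control 2 there were 20 shared regions of the 9 genes, and both mutants lay above the remaining control in 9 of them and below it in 6, against 32.8% and 34.8% of all shared regions under that setting.

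**Figure D3:**
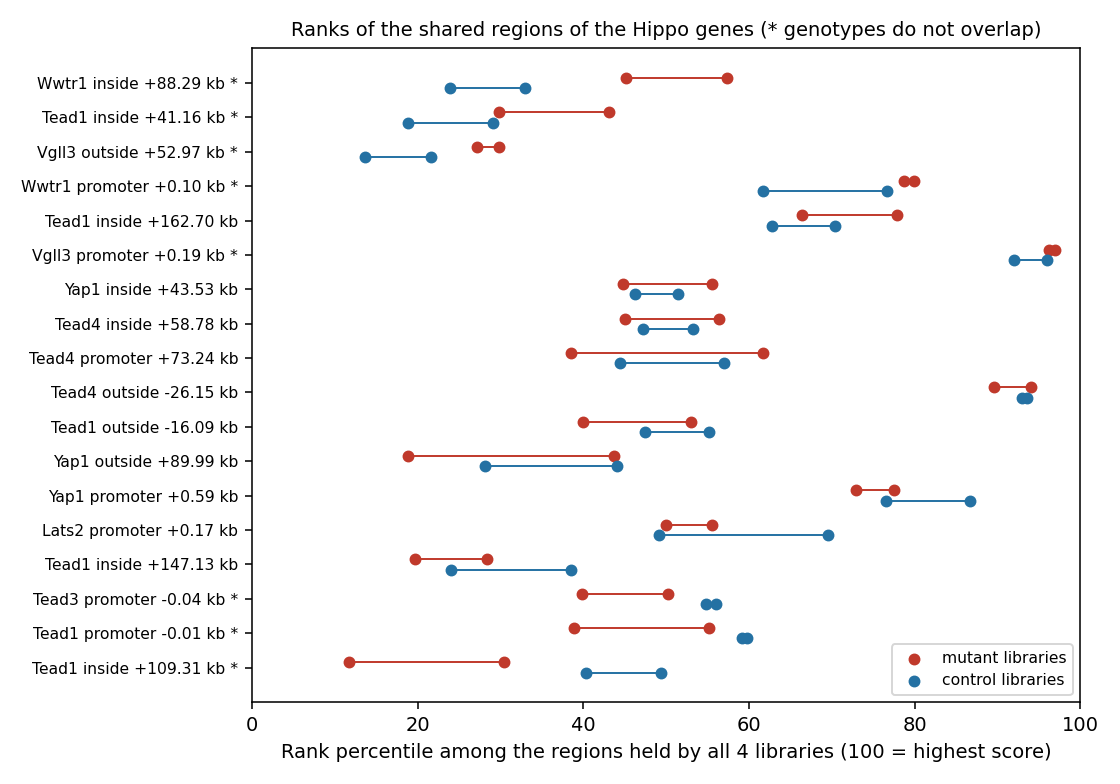
Rank percentile of the 18 shared regions among all regions held by the 4 libraries, with 1 point per library, mutants above controls within each row, and rows ordered by the difference of the means. The Wwtr1 region 88.3 kb past the start, with mutants at 45.2 and 57.3 and controls at 24.0 and 33.0, and the Tead1 region 109 kb from the lower end mark the ends of the range.

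Ordered by mean percentile over the libraries that held them, with the lowest and highest library in brackets, the promoter regions began with Vgll3 at 96.9 (95.0 to 98.02), apart from all others. Yap1 at 85.4 (80.7 to 91.7) and Wwtr1 at 82.0 (68.4 to 88.1) overlapped each other. Next came Lats2 at 71.1 (68.1 to 75.0), Tead1 at 68.9 (63.3 to 74.5), Tead4 at its upper end at 66.7 (59.9 to 77.2) and Tead3 at 66.6 (60.8 to 72.5), whose libraries overlapped from each to the next. Tead2 at 38.2 (26.9 to 47.3) lay below them in every library that listed it, and the lower end of Tead4 came last at 5.52, listed in mutant 2 alone. The score depends on width and is not scaled to it, so this is an order of scores only. By mean enrichment Vgll3 also came first, at 10.8. There Lats2 at 7.51 lay above Yap1 at 7.05 and Wwtr1 at 6.82, so the order below Vgll3 depends on the measure. Peaks at the 7 shared promoters had median widths of 1442 and 1458 bp in the mutants and 1443 and 1544 bp in the controls, against 1117 and 1135 bp in the mutants and 1125 and 1103 bp in the controls over the 10503 shared promoters of all genes. Their median rank percentiles were lower, at 55.5 and 61.7 in the mutants and 59.2 and 61.7 in the controls, against 66.5 and 66.5 in the mutants and 66.9 and 66.9 in the controls over all shared promoters. The 11 shared distal regions had median rank percentiles of 43.8 and 53.0 in the mutants and 47.2 and 40.4 in the controls, against 31.6 and 31.9 in the mutants and 31.8 and 31.2 in the controls over the 7025 shared distal regions.

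**Figure D4:**
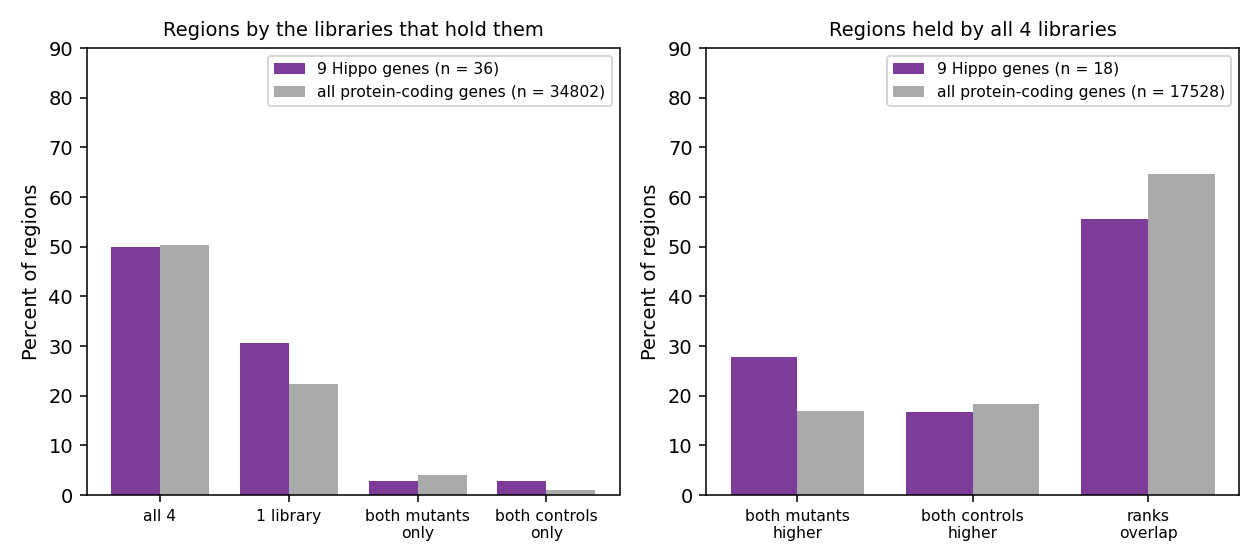
Percent of regions held by each set of libraries (left) and percent of shared regions by the order of the genotypes (right), for the 9 Hippo genes beside all protein-coding genes. The share held by all 4 libraries, 18 of 36 against 50.4%, was close to the background, and counts of 1 region lie behind the bars for both mutants only and both controls only.

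The wider pathway was described from 43 other genes in 3 lists, of which 42 had a region in at least 1 library and 38 a promoter region in all 4 libraries. Their 162 regions included 8 with a peak in both mutants and no control and 0 in the reverse case, against 4.01% and 1.07% of all assigned regions. With equal peak numbers these were 4 and 0 of 120 regions, against 2.11% and 2.11%. Without control 2 they were 10 and 11 of 160, against 5.71% and 8.25%. Among the 82 shared regions, both mutants ranked higher in 16 and both controls in 13, near the 17% and 18.4% of all shared regions.

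Of the 16 genes of the upstream kinases and their inputs, all had a region in all 4 libraries, and 15 had one at the promoter. Regions held by both mutants only lay inside Stk4, which encodes a kinase that activates the Lats kinases, 26.2 kb from Wwc2, a scaffold gene, and 72.6 kb from Frmd6, which encodes a membrane partner of the cascade. Of the 28 shared regions of this list, both mutants ranked higher in 3, against 17% of all shared regions, and both controls in 5, against 18.4%. Wwc1, encoding the KIBRA scaffold, had the most shared regions, 4, followed by Wwc2 and Fat4, a protocadherin gene, with 3 each. At Wwc1 both mutants ranked higher in 1 region and both controls in 2, against the same 17% and 18.4%. The differences were 14.7, −16.8 and −15.5 points. The Wwc2 promoter had rank percentiles of 92.1 and 91.8 in the mutants and 89.6 and 91.1 in the controls. The Fat4 region 41.7 kb past its start had rank percentiles of 0.653 and 0.169 in the mutants and 2.38 and 14.2 in the controls. The mutant values lay near the bottom of the ranks.

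Of the 12 partners and inhibitors of YAP and TEAD, 11 had a region, and Vgll1 had none. Regions held by both mutants only numbered 2 at Amot, which encodes a protein that holds YAP at junctions, and 1 inside Ptpn14, a phosphatase gene. Both mutants ranked higher in 6 of the 23 shared regions of this list, against 17% of all shared regions, and both controls in 3, against 18.4%. Amotl1, a relative of Amot, had 7 shared regions, more than any of the 9 genes, and 1 of them did not overlap between genotypes. That region, inside the gene at −27.5 kb from the nearest listed start, had rank percentiles of 27.2 and 38.8 in the mutants and 19.6 and 17.0 in the controls. Vgll4, whose protein competes with YAP for TEAD, had 4 shared regions, and the 1 inside the gene 80.1 kb past its start had rank percentiles of 40.0 and 27.8 in the mutants and 50.1 and 51.6 in the controls. Ptpn14 had 3 shared regions.

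Of the 15 genes that YAP and TEAD are known to activate, 14 had a promoter region in all 4 libraries. Ankrd1 had none. Regions held by both mutants only lay inside Axl, a receptor kinase gene, and inside Myof, a membrane repair gene. Both mutants ranked higher in 7 of the 31 shared regions of the list, against 17% of all shared regions, and both controls in 5, against 18.4%. Ccn1 and Ccn2 encode matricellular proteins. At the Ccn1 promoter the genotypes overlapped, while the Ccn2 promoter ranked lower in both mutants, with a difference of −10.1 points. Ccn1 had rank percentiles of 33.7 and 47.2 in the mutants and 34.8 and 55.8 in the controls, and Ccn2 had 39.2 and 46.8 in the mutants and 48.9 and 57.4 in the controls. Ccn2 is named here after its values were seen. Dlc1, a tumour suppressor gene, had 7 shared regions, of which both mutants ranked higher in 2 and both controls in 1. Its promoter had rank percentiles of 57.0 and 64.4 in the mutants and 31.3 and 33.8 in the controls, higher in both mutants by 28.1 points, and a region inside the gene 165 kb past the nearest listed start had a difference of 11.5 points. The region 143 kb past that start had 9.79 and 2.66 in the mutants and 21.9 and 11.9 in the controls, a difference of −10.7 points. Crim1, a BMP-binding protein gene, had 4 shared regions, and its promoter had 58.7 and 52.4 in the mutants and 37.8 and 51.7 in the controls. Ccn1 and Myof had 3 shared regions each.

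For likeness, the mean rank percentile of shared regions was taken per gene and library. Averaged over the 7 of the 9 genes with shared regions it was 53.4 and 56.1 in the mutants and 53.8 and 56.5 in the controls. Of 208 other genes with at least 5 shared regions, the 5 nearest by Euclidean distance over the 4 libraries were Prkd1 at 4.07, Hdac9 at 4.24, Etv1 at 6.06, Slc1a3 at 6.29 and Ltbp1 at 6.69. Prkd1 had 53.6 and 53.6 in the mutants and 51.4 and 54.5 in the controls. Within the set, Wwtr1 had 62.0 and 68.6 in the mutants and 50.3 and 47.3 in the controls, and Tead1, with 6 shared regions, had 41.3 and 41.2 in the mutants and 46.0 and 46.5 in the controls. Vgll3 had 62.1 and 63.0 in the mutants and 52.8 and 58.8 in the controls, and Tead3, from its single shared region, had 39.8 and 50.2 in the mutants and 56.1 and 54.8 in the controls. In these 4 genes the genotypes did not overlap, with the mutants higher at Wwtr1 and Vgll3 and lower at Tead1 and Tead3, while at Tead4, Yap1 and Lats2 they overlapped. These means repeat the region ranks given above, and those of Wwtr1 and Vgll3 rest on 2 shared regions each. The same count over other genes was not taken, so 4 of 7 genes has no background here.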

How the data were processed

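Libraries were grouped by the genotypes in the labels. The authors deposited 1 headerless peak list per library in the 10 columns of the narrowPeak layout, and per the submitters' processing notes the build was mm10. Aligner, handling of the transposase offset and peak caller were not given in the sources used here. Each score in the deposited lists was the whole part of 10 times the deposited −log10 p in 114257 of 114262 rows. The deposited fold enrichment was read from its values and place, and its background is not stated. The peak numbers in the names show that 23.8% to 27.8% of numbered peaks were listed, so the authors' lists were filtered by a step not stated. Lists hold no read counts, and all values are single-peak values.

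Peaks of chromosomes 1 to 19 and X were merged where they shared 1 bp. The strongest peak of a library gave a region its score. Genes came from a RefSeq table of GRCm38.p6 with 21631 protein-coding genes, and starts and strand from its promoter windows for 17274 of them. Ties between gene bodies went to the nearest start or end. Rank percentiles were taken among the 18904 regions held by every library, the same number in each, ties averaged. Tests were two-sided exact permutations over libraries. Python 3.11.15, NumPy 2.4.6, SciPy 1.17.1 and matplotlib 3.10.9 were used, and merging and ranking were tested on simulated lists. Members, lists and settings were chosen with earlier results of these data known. All 9 genes are named, as are their promoter regions, the regions that differ by genotype and the 3 strongest distal regions. Of the wider lists, genes with a genotype-specific region and the 3 with the most shared regions are named, including ties.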

Additional observations from a re-analysis of the deposited data

How the results depend on the processing

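The direction of the rank difference was kept in each of the 8 regions whose genotypes did not overlap, under every setting that gave a value. That was largely fixed in advance, since the 8 were chosen for genotypes that lay apart. Leaving out 1 library could therefore hardly turn it, and the 50 kb window, nearest gene start and replicate block left these differences unchanged. With the stronger 50% of peaks only 4 of the 8 had a value. Over 11 regions followed, 117 of 128 recomputed differences stayed within the spread between replicates and 11 moved by more. The 117 include the settings that could not change a difference. The sign turned in 6 of the 128, all at promoter regions whose genotypes overlapped. Only shared promoter regions and regions whose genotypes did not overlap were followed. Distal regions with overlapping genotypes were left out, so whether their sign turned was not tested. At the upper end of Tead4 the difference of −0.567 turned under 5 settings, up to 10.5 without mutant 1, and at Lats2 that of −6.60 turned to 3.10 without control 2. The stronger 50% of peaks per library gave 18 regions of the 9 genes, 11 of them distal, with 2 held by both mutants only and 0 by both controls only, and both mutants ranked higher in 2. With the same number of peaks, 22959, from each list, the 9 genes had 25 regions, 17 of them distal. Of the 25, 2 were held by both mutants only and 0 by both controls only, against 2.11% and 2.11% of all assigned regions. The difference per 10000 peaks turned to 0.436, and 4 of 120 wider pathway regions were held by both mutants only. By nearest gene start 0 regions were held by both controls only and both mutants ranked higher in 3. The Wwtr1 region 88.3 kb past the start, the Tead1 region 109 kb from the lower end and the Vgll3 region beyond the gene then left the set. For the stronger 50% and for nearest gene start, shares over all regions were not computed. When ranked by enrichment, both mutants ranked higher in 3 and both controls in 2, against 17.1% and 17.7% of all shared regions. On whole-list percentiles both mutants were higher in 6 and both controls in 0, against 28.4% and 5.75% of all shared regions. With 1 library left out, the difference per 10000 peaks ran from −1.24 to 0.450, above 0 only without mutant 2. Regions held by the remaining mutants only numbered 2 to 5 and those held by the remaining controls only 1 to 4. Shares over all assigned regions were computed only without control 2. There they were 5.71% and 8.25%, beside 2 and 4 of 36 regions of the 9 genes. Of 18 to 20 shared regions the mutants ranked higher in 5 to 9 and the controls in 5 to 10. The background was 31.9% to 34.4% and 33.6% to 36.3%. Without control 2 the wider pathway had 11 regions of 160 held by the remaining control only, against the same 8.25%. The wider alternatives were chosen after seeing the data. In the labels the replicate numbers are shared by the genotypes. Mutant 1 minus 2 and control 1 minus 2 correlated by 0.0273 over 18904 regions, so no shared replicate effect was seen in the ranks. That cannot decide whether libraries with the same number had a common source. With the replicate block, both mutants higher in each pair numbered 5 and both controls 5, against 25.2% and 27% of all shared regions. A search for motifs around summits was not run, since it needs genome sequence. Depth is unknown, and each of the 43 missing calls had at least 1 removed peak number in its gap, so a weaker peak there cannot be told from none.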
